A study of Mus musculus with 8 samples.

Results

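The 9 genes described here, Ebf1, Pax5, Foxo1, Cd79a, Cd79b, Igll1, Vpreb1, Blnk and Pou2af1, form the core of the early B lymphocyte programme and are known as genes that the transcription factor E2A acts on in B cell precursors. Every probe of the array that carried one of these gene names was taken, which gave 9 of the 27675 gene names in the files and 13 of the 41048 probes with a value on all 8 arrays. Ebf1, Pax5, Foxo1 and Igll1 had 2 probes each and the other 5 genes had 1. The RNA came from mouse haematopoietic stem cells (HSC) that carried an E47 knockout (KO) or were wild type (WT), were transplanted, and were sorted as donor-derived cells. There were 4 groups of 2 arrays: KO cells from secondary recipients, WT cells from secondary recipients, KO cells from primary recipients and WT cells from primary recipients. The sources used here do not give how the knockout was made, how the cells were gated, or the strain and age of the mice. The labels do not say whether the 2 arrays of a group came from separate mice, and if they did not, the p-values reflect technical spread alone.

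E47 is a basic helix-loop-helix protein made from the Tcf3 (E2A) gene, which also encodes E12 by alternative splicing. E proteins bind DNA as dimers at short E-box motifs. In lymphoid progenitors they act together with Foxo1 to switch on Ebf1, and Ebf1 in turn activates Pax5, which holds cells in the B lineage. The genes downstream encode the surrogate light chain of the pre-B cell receptor (Igll1 and Vpreb1), its signalling chains (Cd79a and Cd79b), the adaptor Blnk that passes the signal on, and the B cell coactivator Pou2af1. Self-renewing HSC stand before this programme, although low levels of lymphoid transcripts are known in early progenitors.

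Promoter sequence was available from RefSeq (GRCm38.p6) for 8 of the 9 genes, as 9 entries because Ebf1 had 2 starts. Cd79b had no entry. Within the 250 bases before the start, the general E-box CANNTG was found in 8 of the 9 entries, against 66.2% of 32851 mouse promoter windows of the same length. The form CAGGTG, searched on both strands and therefore also read as CACCTG, is a form that E proteins are known to favour, and it was present in 4 entries, against 17.2% of all windows. The palindromic form CAGCTG was present in 1 entry, against 13.0%. Every CAGGTG and CAGCTG match is also a CANNTG match. The 4 windows with CAGGTG are printed because they show the kind of site through which E2A is known to act. They run 5′ to 3′ in the direction of the gene and end 1 base before the annotated start, with all E-boxes in capitals.
Cd79a (GRCm38.p6, plus strand, chr7:24897247-24897496): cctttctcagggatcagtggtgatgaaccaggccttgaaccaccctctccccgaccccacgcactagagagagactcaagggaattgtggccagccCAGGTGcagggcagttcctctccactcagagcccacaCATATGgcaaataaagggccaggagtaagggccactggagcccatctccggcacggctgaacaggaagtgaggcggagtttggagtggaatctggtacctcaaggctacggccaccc
Igll1 (GRCm38.p6, minus strand, chr16:16863986-16864235): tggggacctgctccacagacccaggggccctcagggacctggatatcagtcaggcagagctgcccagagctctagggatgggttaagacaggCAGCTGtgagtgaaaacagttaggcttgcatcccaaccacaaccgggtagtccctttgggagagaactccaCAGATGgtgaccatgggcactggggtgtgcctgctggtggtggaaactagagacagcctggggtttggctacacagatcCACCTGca
Vpreb1 (GRCm38.p6, minus strand, chr16:16869256-16869505): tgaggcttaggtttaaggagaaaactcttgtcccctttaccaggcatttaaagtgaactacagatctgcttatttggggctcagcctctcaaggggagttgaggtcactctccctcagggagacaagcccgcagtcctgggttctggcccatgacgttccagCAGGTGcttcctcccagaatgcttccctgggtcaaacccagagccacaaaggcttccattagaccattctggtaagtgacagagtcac
Blnk (GRCm38.p6, minus strand, chr19:40994222-40994471): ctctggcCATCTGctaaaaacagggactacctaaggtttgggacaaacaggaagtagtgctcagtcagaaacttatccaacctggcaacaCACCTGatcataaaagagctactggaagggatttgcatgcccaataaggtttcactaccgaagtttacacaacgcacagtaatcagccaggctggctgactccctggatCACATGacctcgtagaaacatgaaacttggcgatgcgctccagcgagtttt
In Cd79a the CAGGTG match began 154 bases before the start, in Vpreb1 88 bases, in Blnk 160 bases as CACCTG and in Igll1 8 bases as CACCTG. Igll1 also held the CAGCTG match, 158 bases before its start. The window of the first Ebf1 start held no E-box, and those of the second Ebf1 start, Pax5, Foxo1 and Pou2af1 held E-boxes of other forms. These are matches of letters in short windows and do not show binding, and more distant enhancers were not examined.

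**Figure D1:**
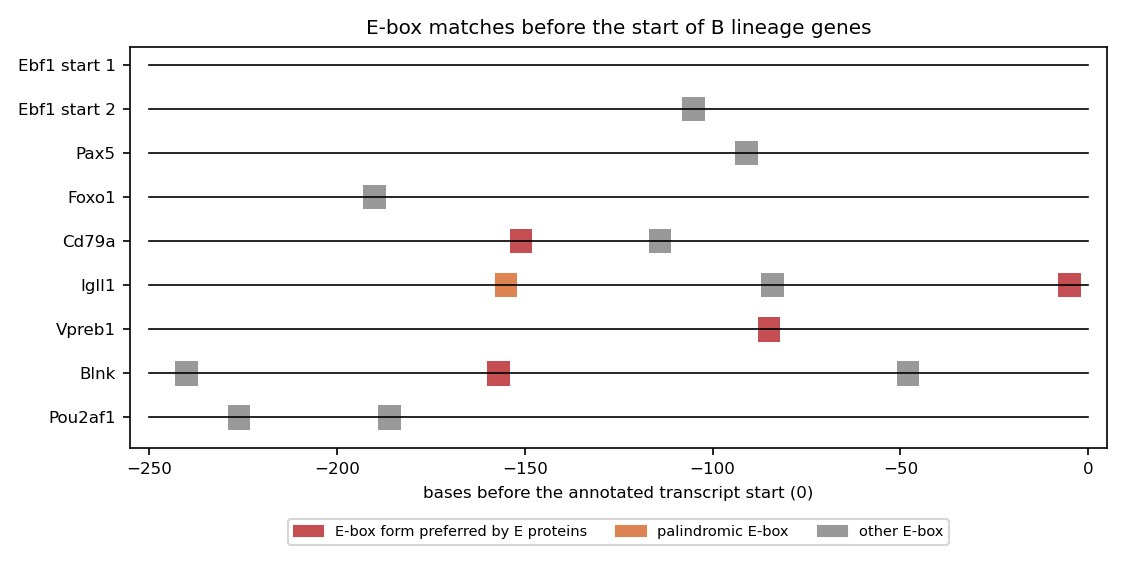
E-box matches in the 250 bases before the annotated start of 8 genes (9 RefSeq entries). The horizontal axis gives the distance from the start in bases, each line is 1 entry, and each block is 1 match, coloured by form. The form favoured by E proteins appears in Cd79a, Igll1, Vpreb1 and Blnk.

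The arrays were unequal in brightness. Replicate 2 of both primary groups was dim, with 35.4% of spots well above background on the KO array and 41.9% on the WT array, against 72.2% to 90.7% on the other 6 arrays. All 4 WT arrays lay on 1 slide, the KO secondary arrays on a second and the KO primary arrays on the third, and the effects of slide and genotype cannot be told apart. Among 12 HSC markers, 10 to 12 were well above background on the 6 brighter arrays, and 6 and 7 on the dim KO and WT arrays. Summed over these markers, the signal was 52.4 and 82.2 times the array's 75th percentile on KO secondary and 81.9 and 76.3 on WT secondary arrays. On primary arrays it was 29.7 and 12.2 for KO and 25.1 and 2226 for WT cells. Granulocyte and monocyte markers (11 of 12 matched, 8 to 11 well above background on each array) differed with the recipient. Their summed signal, in multiples of the array's 75th percentile, was 11.4 and 25.7 on KO secondary and 11.0 and 7.23 on WT secondary arrays, against 230.4 and 16115 on KO primary and 249.2 and 10967 on WT primary arrays. The part of such cells in the results for primary recipients was not tested. In bulk samples of this kind, fewer cells of a type and less RNA per cell cannot be told apart.

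Each of the 9 genes had a probe above background on some of the arrays of cells sorted as HSC. So did most other probes, as 71.8% to 90.6% of all probes were above background on the 6 brighter arrays. A probe counts as well above background where the scanner software marks its signal as clearly above the local background. Of the 104 combinations of probe and array, 80 were so marked, and 67 of 78 without the 2 dim arrays. By array, 13 and 10 of the 13 probes were marked on KO secondary, 12 and 11 on WT secondary, 12 and 6 on KO primary and 9 and 7 on WT primary arrays. The first KO secondary array thus showed every probe and the dim KO primary array fewer than any other. The share of the 13 probes exceeded the share of all probes on 7 of 8 arrays, and the exception was the first WT primary array, with 69.2% against 73.4%. Above background on all 8 arrays were 5 probes, for Pax5, Igll1 (both), Vpreb1 and Pou2af1.

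**Figure D2:**
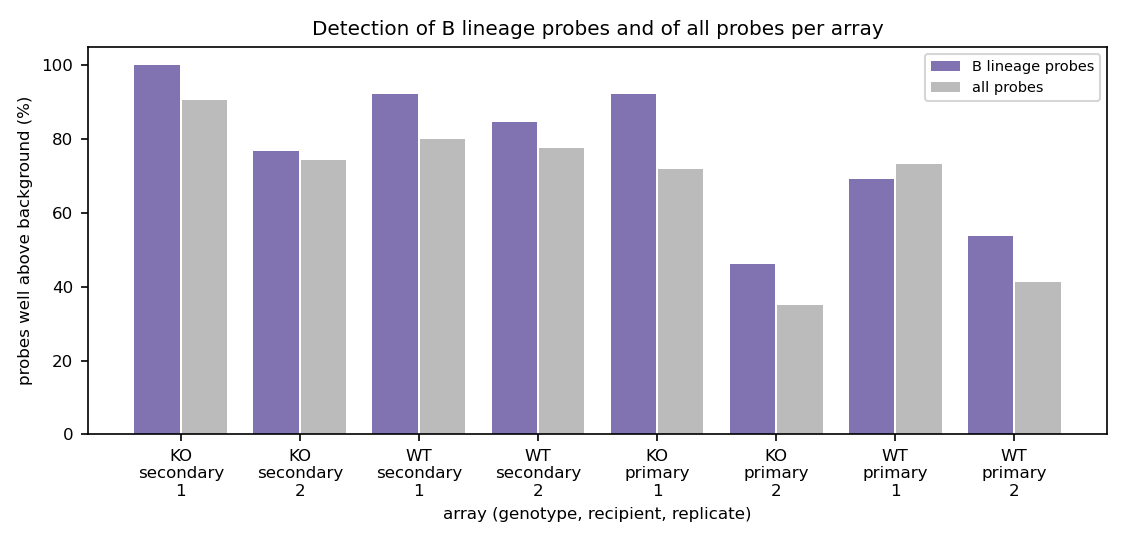
Percentage of probes well above background on each array, for the 13 B lineage probes (purple) and for all probes (grey), with 1 pair of bars per array. Detection of the B lineage probes runs between 46.2% and 100% and is low where detection of all probes is low.

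Levels are given as log2 of the processed signal minus the 75th percentile of the array, so that 0 marks the 75th percentile and 1 unit is a doubling. They can be compared between arrays for 1 probe but not between probes. Each log2 change has the median change of the 32776 tested probes taken off, because that median itself shifted by up to 0.41 between genotypes and by -0.55 between secondary and primary recipients over both genotypes. The limma p-values refer to the change before this centring and are adjusted by the Benjamini-Hochberg method over all tested probes. Of the 13 probes 12 were tested, and the second Ebf1 probe was not, since no group had it above background on both arrays.

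Among the transcription factors, Ebf1 was at the edge of detection. Its first probe (mm8, chr11:44848286-44848345) read -4.35 and -5.93 on KO secondary, -5.89 and -5.42 on WT secondary, -5.39 and -0.49 on KO primary and -5.40 and -4.28 on WT primary arrays. The groups overlapped, and the single high value came from the dim KO primary array. In primary recipients neither WT array and only the dim KO array had it above background, so no size of change can be given there; the limma adjusted p was 0.9998, and the fitted value changed sign without the dim KO array. The second probe (mm8, chr11:44492539-44492598), whose accession is a cDNA clone, was above background on 2 of 8 arrays, the first KO secondary array at -4.54 and the first KO primary array at -1.01.

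Pax5, the commitment factor of the B lineage, had the smallest SE of the 12 tested probes in the fit of 4 groups. Its main probe (mm8, minus strand of chromosome 4, with ends at 44558582 and 44591136, so that its 60 bases lie in separate stretches of the genome) read -0.69 and -0.68 on KO secondary, -1.15 and -1.09 on WT secondary, 0.65 and 1.59 on KO primary and 0.81 and 0.53 on WT primary arrays. All 4 secondary arrays lay below all 4 primary arrays, and within each recipient the genotypes were close. The unscaled processed signals were 412.9 and 265.4 on KO secondary and 381.7 and 342.6 on WT secondary, against 555.6 and 58.0 on KO primary and 560.3 and 50.4 on WT primary arrays. On the 6 brighter arrays the 2 primary signals were again the highest, while the 2 dim arrays gave the lowest signals of all and are high only after scaling. The second probe (mm8, chr4:44546164-44546223), again from a cDNA clone, read -1.71 and -5.28 on KO secondary, -6.20 and -1.02 on WT secondary, -1.56 and -2.50 on KO primary and -5.71 and -3.79 on WT primary arrays. Its replicates lay far apart within both secondary groups, and it did not follow the first probe. In primary recipients only the first KO array had it above background.

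Foxo1, a forkhead factor that works beside E2A and is needed for early B cell genes, had 2 probes of 1 transcript that scattered widely. The probe of higher mean (mm8, chr3:52437296-52437355) read -0.90 and -2.30 on KO secondary, -4.58 and -6.81 on WT secondary, -4.42 and -2.59 on KO primary and -6.44 and -1.96 on WT primary arrays. In secondary recipients both KO arrays lay above both WT arrays, and in primary recipients the groups overlapped. On 4 of the 8 arrays, 3 of them primary, this probe was not above background. The other probe (mm8, chr3:52434190-52434249) read -0.67 and -5.96 on KO secondary, -3.86 and -3.71 on WT secondary, -4.46 and -2.83 on KO primary and -5.03 and -3.54 on WT primary arrays. There the KO secondary arrays fell on either side of the WT pair, so the 2 probes disagreed on the second KO array.

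Igll1 and Vpreb1, the lambda5 and VpreB parts of the surrogate light chain, were above background on every array. The main Igll1 probe (mm8, chr16:16775743-16775802) read 0.83 and -0.27 on KO secondary, -0.68 and -0.93 on WT secondary, 0.89 and -0.85 on KO primary and 1.03 and 1.52 on WT primary arrays. KO lay above WT in secondary and below WT in primary recipients, with no overlap in either. The other Igll1 probe (mm8, chr16:16774574-16774633) read -2.85 and -2.88 on KO secondary, -4.18 and -3.81 on WT secondary, -1.88 and 0.90 on KO primary and -2.30 and -0.12 on WT primary arrays. It placed all secondary below all primary arrays and, unlike the first probe, had overlapping genotypes in primary recipients. Vpreb1 (mm8, chr16:16782029-16782088) read -1.27 and -2.17 on KO secondary, -3.79 and -3.64 on WT secondary, -1.06 and 0.95 on KO primary and -2.53 and -0.90 on WT primary arrays. Both WT secondary arrays were the lowest of the 8, and in primary recipients the genotypes overlapped slightly.

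Cd79a and Cd79b, the Ig-alpha and Ig-beta chains that signal for the pre-B and B cell receptor, did not move together. Cd79a (mm8, plus strand of chromosome 7, with ends at 24608094 and 24608351, its 60 bases again in separate stretches) read -2.43 and -3.38 on KO secondary, -3.92 and -4.83 on WT secondary, -3.57 and -2.50 on KO primary and -1.71 and -2.88 on WT primary arrays. KO exceeded WT in secondary recipients without overlap, and the primary groups overlapped. Cd79b (mm8, chr11:106127556-106127615) read 1.61 and 0.59 on KO secondary, 2.19 and 1.81 on WT secondary, 1.03 and -1.22 on KO primary and 0.02 and 1.52 on WT primary arrays. It was the only member whose KO secondary arrays both lay below the WT secondary arrays.

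Blnk, the adaptor that links the receptor to calcium signalling, read -2.29 and -1.74 on KO secondary, -2.92 and -2.19 on WT secondary, 0.02 and -1.68 on KO primary and -0.96 and -0.72 on WT primary arrays (mm8, chr19:40982249-40982308). Its secondary arrays all lay below its primary arrays, with the dim KO primary array, where it was not above background, only just above the highest of them. Pou2af1, the coactivator that B cells use with octamer-binding factors, read -1.52 and 0.10 on KO secondary, -1.79 and -2.41 on WT secondary, -0.89 and -0.07 on KO primary and -1.76 and 1.38 on WT primary arrays (mm8, chr9:50992233-50992292). Its lowest values were the WT secondary pair, and the WT primary arrays lay on either side of the KO primary pair. Whether each probe lies in a coding or an untranslated exon was not determined here, as no annotation of mm8 was used.

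**Figure D3:**
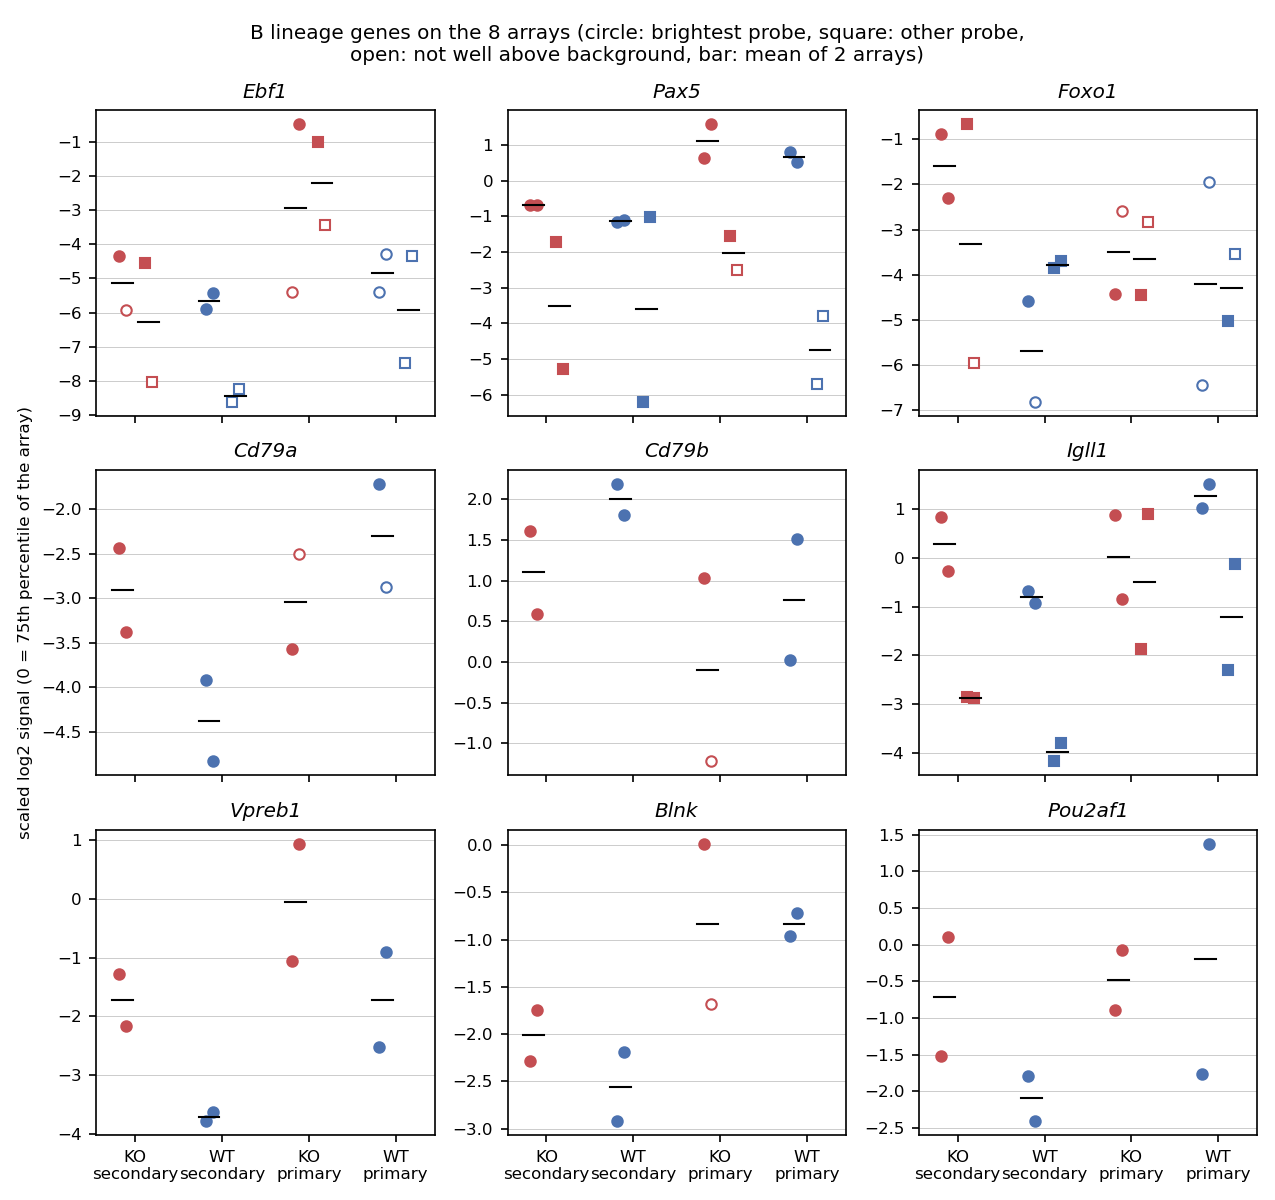
Scaled log2 signal of the 9 genes (vertical axis, 0 is the 75th percentile of the array) in KO secondary, WT secondary, KO primary and WT primary cells, with 1 point per array. Circles are the brightest probe of a gene and squares the other probe, open points are not well above background, and bars are means of 2 arrays. The brightest Pax5 probe and Blnk sit lower in all 4 secondary than in all 4 primary arrays, while Cd79b has its highest values in WT secondary cells.

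KO and WT cells from secondary recipients were compared to ask whether B lineage RNA differed without E47 after a second transplantation. None of the 12 tested probes passed an adjusted p of 0.05 in limma, and neither did any probe of the array (0% of 32776, with 1940 at an unadjusted p under 0.05). Of the 12 probes 10 lay above the median probe and 2 below, with a median log2 change of 0.40. The values ran between -1.31 ± 1.22 for Cd79b and 3.69 ± 1.71 for the brighter Foxo1 probe (SE, n = 2 arrays per group; limma adjusted p = 0.966 and 0.839). Foxo1 was the 1 member with an unadjusted p under 0.05 (0.0444, for its change of 4.10 before centring), where 3.89% of all probes were higher by that rule, and its other probe stood at 0.06 ± 1.75. The brighter Foxo1 probe was tested only because both KO secondary arrays, where it was high, had it above background. That p is therefore no support for a difference. Only 1 WT secondary array had the probe above background, so the size of its change is uncertain. Vpreb1 had 1.58 ± 1.19 (limma adjusted p = 0.906), Cd79a 1.06 ± 1.09, Pou2af1 0.98 ± 1.34 and the Igll1 probes 0.68 ± 1.10 and 0.72 ± 1.32. Pax5 stood at 0.03 ± 0.99 on its main probe, and Blnk and Ebf1 at 0.13 ± 1.08 and 0.10 ± 1.66.

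By plain separation of the arrays, 7 of the 12 probes had both KO arrays above both WT arrays in secondary recipients: the main Pax5 and brighter Foxo1 probes, Cd79a, both Igll1 probes, Vpreb1 and Pou2af1. The same held for 31.9% of all tested probes, since the median probe was itself 0.41 higher in KO. With arrays scaled on their medians, 5 of the 12 remained, without Pax5 and Pou2af1, against 20.3% of all probes. Both counts include the brighter Foxo1 probe, which was tested only through its KO secondary arrays. Cd79b was the 1 probe with both KO arrays below, against 13.4% of all probes.

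In primary recipients the members showed no common direction between KO and WT cells. None passed in limma (0% of all probes called, 1205 of 32776 at an unadjusted p under 0.05), and every member had an adjusted p of 0.9998. Of the 12 probes 7 lay above and 5 below the median probe, with a median log2 change of 0.23. The extremes of the fitted values were 2.41 ± 1.95 for the second Pax5 probe, of whose 4 primary values 3 were not above background, and -1.57 ± 1.10 for the main Igll1 probe. Those 2 were also the probes whose arrays did not overlap, 1 higher (17.1% of all probes) and 1 lower (8.56%). With arrays scaled on their medians Cd79a joined Igll1, 2 lower against 11% of all probes. The Igll1 change was -0.06 without the dim KO array and -0.30 without both dim arrays. Vpreb1 stood at 1.35 ± 1.19, Cd79b at -1.18 ± 1.22, Cd79a at -1.06 ± 1.09, Pou2af1 at -0.60 ± 1.34, Blnk at -0.31 ± 1.08 and the main Pax5 probe at 0.14 ± 0.99. Without the 2 dim arrays, the fitted values of Ebf1 and Pax5 turned to -0.15 and -0.32, and Cd79b, Blnk and Pou2af1 to 0.85, 0.81 and 0.71, so those 5 directions rested on the dim arrays. Over the whole array, leaving out WT primary replicate 1 gave 627 calls in this comparison, 1 higher and 626 lower, with no member's brightest probe among them.

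**Figure D4:**
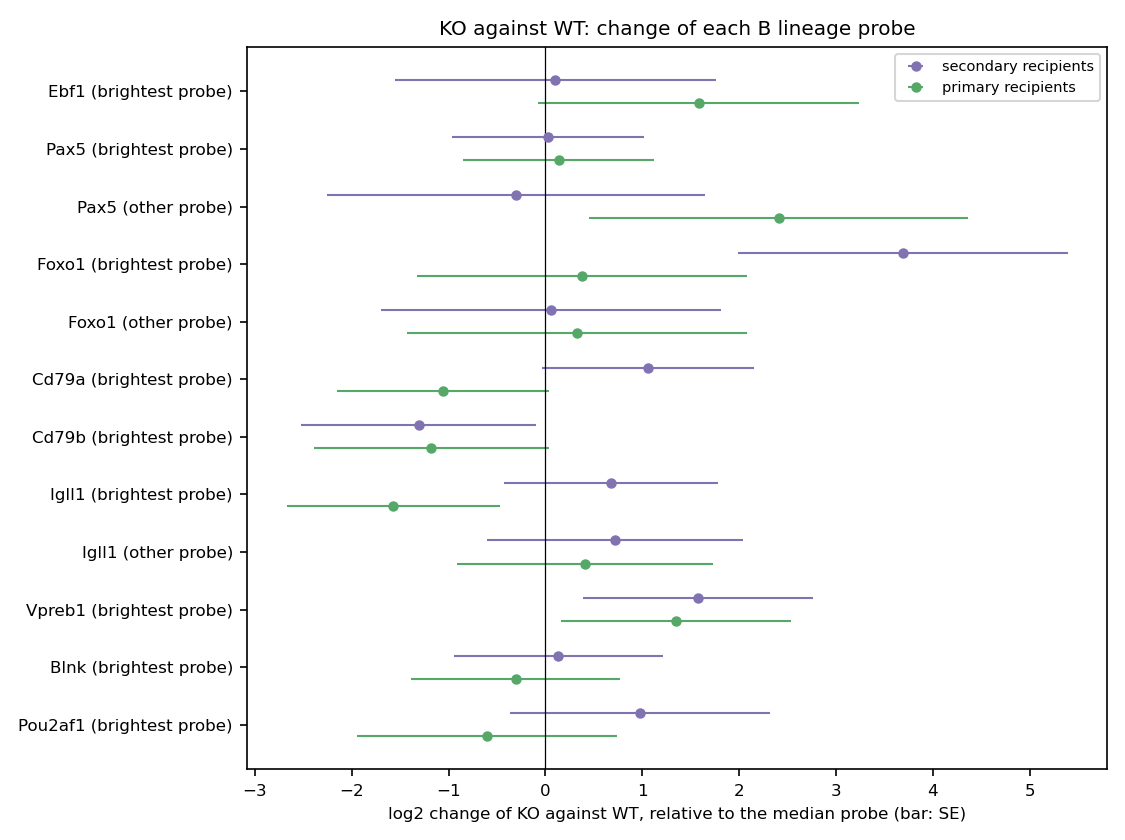
Log2 change of KO against WT cells for the 12 tested probes, relative to the median probe (horizontal axis), in secondary (purple) and primary (green) recipients. Points are limma estimates and bars are SE, with 2 arrays per group. Vpreb1 lies above 0 in both recipients and Cd79b below 0 in both, each within 2 SE of 0.

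Over both recipients, Vpreb1 had the lowest p of the members, with a log2 change of 1.52 ± 0.79 (SE, n = 4 arrays per genotype; unadjusted p = 0.0465, limma adjusted p = 0.867). Both p-values refer to its larger change before centring, 1.82. At an unadjusted p under 0.05, 3.34% of all probes were higher, and after adjustment 0% were called. The brighter Foxo1 probe stood at 2.09 ± 1.27 and Cd79b at -1.18 ± 0.80, while the main Pax5 probe and Cd79a were near the median probe, at 0.14 ± 0.65 and 0.06 ± 0.81. No member had all 4 KO arrays above or below all 4 WT arrays, which occurred for 1.28% and 0.467% of all probes.

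The difference between recipients in the change of KO against WT was tested as an interaction. No member passed (0% of all probes called; 1289 at an unadjusted p under 0.05), and the lowest limma adjusted p among members was 0.993. The main Igll1 probe, higher in KO in secondary and lower in KO in primary recipients, had an interaction of 2.12 ± 1.56 on the log2 scale (SE, n = 2 arrays in each of 4 groups), and its difference in primary recipients was close to 0 without the dim KO array. The interaction of its second probe was 0.19 ± 1.87.

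Secondary and primary recipients were then compared to ask whether the same RNAs differ with a second transplantation. Over both genotypes, 8 of 12 probes lay below the median probe and 4 above, with a median of -0.47. None of them passed the adjusted threshold, where 0.272% of all probes did, 87 higher and 2 lower. These 89 calls became 0 without the 2 dim arrays, and 0 whenever any 1 of the 8 arrays was left out. The second Igll1 probe stood at -2.03 ± 0.88 (SE, n = 4 arrays per recipient; limma adjusted p = 0.251), Pax5 at -1.25 ± 0.65 (0.263) and Vpreb1 at -1.28 ± 0.79 (0.279). These 3 had an unadjusted p under 0.05, between 0.0171 and 0.0460, where 10.8% of all probes were lower by that rule. Those p-values refer to the larger changes before centring, -2.58 for Igll1, -1.80 for Pax5 and -1.83 for Vpreb1. The second Igll1 probe read 0.90 and -0.12 on the dim primary arrays, against -1.88 and -2.30 on the bright ones. Vpreb1 read 0.95 and -0.90 on the dim primary arrays, against -1.06 and -2.53 on the bright ones. The size of these 2 changes therefore rested in part on the dim arrays.

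Blnk stood at -0.90 ± 0.72 between secondary and primary recipients, and the main Igll1 probe at -0.36 ± 0.83. Cd79b went the other way, at 1.76 ± 0.80, with a limma adjusted p of 0.426 that refers to the smaller change before centring. The main Pax5 probe, the second Igll1 probe and Blnk, 3 in all, had all 4 secondary below all 4 primary arrays, against 10.7% of all probes, and none had all above, against 4% of all probes. Scaled on array medians, Pax5 and Igll1 remained, 2 of 12 against 12.1% of all probes. Without the 2 dim arrays these 3 and the main Igll1 probe were separated, against 18.1% of all probes.

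The same contrast within each genotype gave 0% of all probes called both in KO and in WT cells (2027 and 4066 at an unadjusted p under 0.05). Pax5 stood at -1.41 ± 0.99 in KO and -1.004 ± 0.99 in WT cells, the second Igll1 probe at -1.98 ± 1.32 and -1.99 ± 1.32, Vpreb1 at -1.27 ± 1.19 and -1.21 ± 1.19, and Blnk at -0.79 ± 1.08 and -0.93 ± 1.08. For these 4 probes the KO and WT estimates lay closer together than 1 SE. Each of these estimates includes a dim primary array. The WT arrays shared 1 slide, whereas in KO cells recipient and slide cannot be told apart. Cd79a and the main Igll1 probe differed in sign, at 0.52 ± 1.09 and 0.65 ± 1.10 in KO cells, against -1.29 ± 1.09 and -1.29 ± 1.10 in WT cells. Markers of mature B and plasma cells (9 of 11 matched, 6 to 9 above background per array) had a summed signal of 8.48 to 12.8 times the 75th percentile on KO secondary and 6.33 to 11.2 on WT secondary, against 13.4 to 15.9 on KO primary and 14.9 to 19.7 on WT primary arrays. Markers of T and NK cells (all 10 matched) stood at 8.36 to 19.1 on KO secondary and 5.87 to 7.10 on WT secondary, against 22.7 to 453.6 on KO primary and 18.1 to 21.7 on WT primary arrays. The part of either list in the B lineage values of secondary against primary recipients was not tested.

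**Figure D5:**
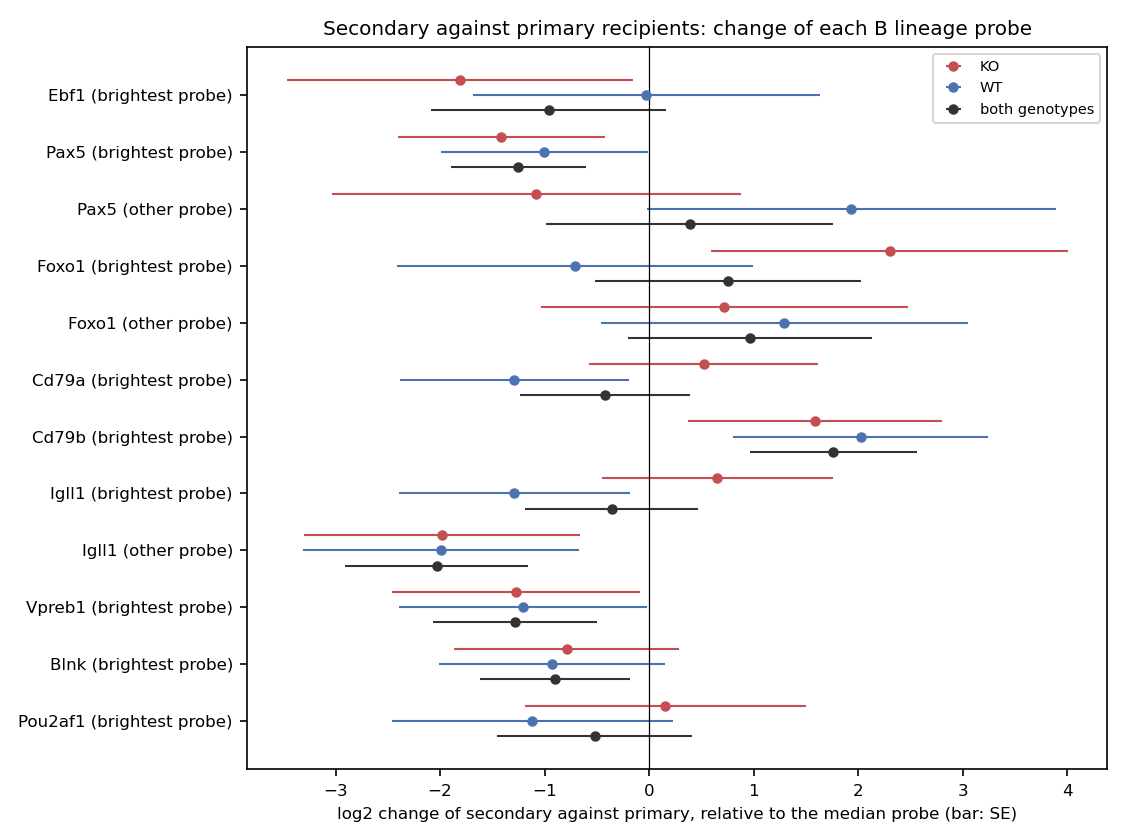
Log2 change of secondary against primary recipients for the 12 tested probes, relative to the median probe (horizontal axis), in KO (red), in WT (blue) and over both genotypes (black). Points are limma estimates and bars are SE. The brightest Pax5 probe, the second Igll1 probe, Vpreb1 and Blnk lie below 0 in KO and in WT cells and Cd79b above 0. The estimate over both genotypes averages the KO and WT changes of the same arrays and is not separate from them.

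A longer list of 41 further B lineage genes, 39 of them tested through their brightest probe, also had 0 genes past the adjusted limma threshold in each of the 7 comparisons. The list was not restricted to genes specific to B cells. At an unadjusted p under 0.05, 1 of the 39 was higher in KO against WT cells from secondary recipients (3.89% of all probes) and 1 in the interaction (2.02%). In both it was Rag2, which was tested only because both KO secondary arrays had it above background. Neither WT secondary array did, so these counts are no support for a difference. Between secondary and primary recipients 2 were higher (6.87%) and 5 lower (10.8%) over both genotypes, and 1 was higher (6.97%) and 4 lower (5.43%) in WT cells. In the other 3 comparisons 0 passed that rule. Its median log2 change was 0.31 in KO against WT cells from secondary recipients and 0.03 from primary recipients, where the 9 genes' probes had 0.40 and 0.23. Between secondary and primary recipients it was -0.59. For KO against WT, Dntt, which adds nucleotides at V(D)J junctions, stood at 0.53 ± 1.03 in secondary and -0.32 ± 1.03 in primary recipients, Rag1, part of the V(D)J recombinase, at 0.89 ± 1.68 and 3.07 ± 1.68, and Il7r, the receptor for interleukin 7, at 1.95 ± 1.63 and 1.83 ± 1.63. The brightest Dntt probe was above background on all 8 arrays, and the other Dntt probes on 4 and 1 of them.

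In secondary recipients the lowest p values of that list belonged to Rag2 (limma adjusted p = 0.825), Ikzf1 (1.15 ± 1.02, 0.913) and Il7r. Rag2 was above background on 4 of 8 arrays and on neither WT secondary array, so no size is given for it. In primary recipients they belonged to Myb (-5.34 ± 2.22, 0.9998), Rag1 and Fcer2a (-2.41 ± 1.23, 0.9998). The Myb probe read 617.7 and 15.9 in processed signal on KO primary, against 848.4 and 20011 on WT primary arrays, so its change rests on the dim WT array. The brightest Rag1 probe read 2322.9 on the first KO primary array, against 25.6 to 66.7 on the other bright arrays, and Bank1 2257.8 there, against 21.3 to 55.1. Another tested Rag1 probe did not show this rise, with 32.5 on that array against 12.9 to 145.3 on the other bright arrays. The Rag1 changes given here are those of the brightest probe alone. Over both recipients Il7r (1.95 ± 1.08), Ikzf1 (1.10 ± 0.67) and Rag1 (2.04 ± 1.17) came first, each with a limma adjusted p of 0.867. For the interaction they were Rag2, Syk (-4.10 ± 2.06) and Fcer2a (2.77 ± 1.74), each with 0.993. For secondary against primary recipients over both genotypes they were Bcl11a (2.53 ± 0.72), Rag2 and Ikzf1 (2.29 ± 0.67), with limma adjusted p of 0.263 to 0.267. Within KO cells they were Mzb1 (-2.02 ± 1.12), Rag1 (-3.18 ± 1.68) and Bank1 (-3.21 ± 1.86), each with 0.753, and within WT cells Rag2 (0.309), Syk (5.10 ± 1.46, 0.367) and Blk (-1.67 ± 0.99, 0.392).

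Of the E proteins and their Id inhibitors, which bind E proteins and keep them off DNA, 5 of 6 were tested and 0 passed in limma in any of the 7 comparisons. Only Tcf4 had an unadjusted p under 0.05, for secondary against primary recipients over both genotypes (0.0156, where 6.87% of all probes were higher) and in WT cells (0.00474, where 6.97% were). This brightest Tcf4 probe was tested only through the secondary groups, where it was higher, so these p-values are no support. It was above background on neither dim array. Another tested Tcf4 probe did not follow it, at -2.90 and -4.53 on WT secondary against 2.12 and -2.86 on WT primary arrays. The remaining tested probe was higher on both WT secondary than on both WT primary arrays. The brightest probe of Tcf3, which cannot be placed relative to the deleted part from the sources used here, had processed signals of 1664.2 and 167.4 on KO secondary, 1778.2 and 1773.4 on WT secondary, 83.8 and 101.2 on KO primary and 104.4 and 1277.9 on WT primary arrays. It was above background on all 8 arrays, KO arrays included, and so does not check the labels. This probe stood at -1.71 ± 1.59 in KO against WT cells over both recipients (limma adjusted p = 0.885), with its highest scaled level, 5.20, on the dim WT primary array. A second tested Tcf3 probe did not follow it and had its highest scaled level, 7.12, on the dim KO primary array.

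The profiles most like those of the members were sought among 9301 probes above background on all arrays, by Pearson r of scaled level over the 8 arrays, which share differences in brightness. For Pax5 they were Prss33, B3galt2 and Defb19 (r of 0.989, 0.988 and 0.987). For Vpreb1 they were Kif14, Tbc1d17 and Rab1b (0.993, 0.984 and 0.981), and for Igll1 Slc26a9, Fam207a and Doc2a (0.979, 0.922 and 0.911). Pou2af1 was closest to Lman1l, Itgam and Olfr159 (0.969, 0.968 and 0.968), Blnk to Rasl12, Dll4 and Slc41a1 (0.963, 0.960 and 0.959), Cd79a to Cd300ld3, Tm4sf5 and Srrm1 (0.960, 0.933 and 0.933) and Cd79b to Tm9sf3, Dgcr6 and Gstp1 (0.932, 0.923 and 0.896). No member or gene of the further B lineage list was among these 21 names.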

How the data were processed

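RNA of sorted mouse HSC was amplified by a global PCR, labelled with Cy3 and hybridised to 8 one-colour arrays, per the labels' protocols. The deposited scanner files hold spot intensity on a linear scale, background-subtracted; the software, per the file headers, was Agilent's Feature Extraction, version 10.5.1.1. The deposited matrix of the series gives the ratio of each spot to its array's median (column medians of 1, checked against the scanner values), and served as an alternative.

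Outlier spots and controls were left out, spots of a probe averaged, and log2 signals scaled on the 75th percentile of each array. A probe was tested if both arrays of some group had it above background, with limma 3.58.1 in R 4.3.3, in a fit of 4 groups (4 residual degrees of freedom) or an additive fit (5). The code of the additive fit was run on simulated data with large changes and the same small spread for all probes. That does not show how either fit performs at the spread of these arrays. Array number limits precision. Members were matched by gene name, and represented in alternatives by the probe of highest mean. Named genes were all members, Rag1, Dntt, Il7r, the 3 lowest p of the further list per comparison and the 3 most alike profiles; 1 further gene of that rule is not reported here. The members, lists and tests were chosen with earlier results of these data known. Alternatives covered background correction, normalization, the dim probe filter, the probes of a gene, the series matrix, replicate and slide blocks, and left-out arrays.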

Additional observations from a re-analysis of the deposited data

Results flagged for a closer look

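The main Igll1 probe had both KO arrays above both WT arrays in secondary recipients and both below in primary recipients. The interaction was 2.122 on the log2 scale (SE 1.56, n = 2 arrays in each of 4 groups) with a limma adjusted p of 0.993, so the difference did not pass the test, and the second Igll1 probe did not show it. The primary difference of the main probe, -1.57, became -0.06 without KO primary replicate 2 and -0.30 without both dim arrays.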

How the results depend on the processing

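The 27 log2 changes of the 9 genes (brightest probe, 3 comparisons) were recomputed under 14 alternatives. Not every alternative could alter a change. The series matrix values and the replicate block leave all centred changes as they are. Leaving out primary arrays leaves KO against WT in secondary recipients as it was, and the reverse. The share of reversals is therefore lower than among values free to differ. Of the 378 values 30 reversed in sign, 0 passed the threshold, and 13 of the 27 changes never reversed. For KO against WT in primary recipients, leaving out both dim arrays gave -0.1508 for Ebf1, -0.3227 for Pax5, 0.8513 for Cd79b, 0.8136 for Blnk and 0.7127 for Pou2af1, and normexp gave 0.0514 for Cd79b and 0.4144 for Blnk. In secondary recipients, quantile normalization gave -0.4549 for Ebf1, and Pax5 stood at -0.0341 with normexp and -0.0265 without the probe filter. For secondary against primary recipients, leaving out both dim arrays gave 0.2866 for Ebf1 and 0.2096 for Pou2af1, and normexp gave -0.1222 for Foxo1, 0.1674 for Igll1 and 0.0277 for Pou2af1. Leaving out each array in turn gave, for KO against WT in primary recipients, -0.2241 to 3.703 for Ebf1, -0.3069 to 0.5002 for Pax5, -1.6398 to 2.3163 for Foxo1, -2.7717 to -0.0591 for Igll1, -2.634 to 0.5887 for Cd79b, -1.4878 to 1.1796 for Blnk and -1.946 to 0.6694 for Pou2af1. In secondary recipients the ranges were -0.6625 to 0.8977 for Ebf1, -0.0123 to 0.0565 for Pax5 and -0.2442 to 0.4331 for Blnk, and for secondary against primary -1.677 to 0.1072 for Ebf1, -0.7379 to 0.0533 for Cd79a and -1.0075 to 0.1537 for Pou2af1. A lone array left in a group was assumed to vary like the others. The cause of these reversals was not tested.

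Over all probes, the 89 calls of secondary against primary recipients became 1 with normexp, 543 with quantile normalization, and 0 with the series matrix values, without the probe filter, with 1 probe per gene name, without both dim arrays and without each array in turn (0 to 0). KO against WT in primary recipients had 0 calls and 0 to 627 when 1 array was left out, the 627 without WT primary replicate 1. With the replicate number as a block the 89 calls became 0. The difference between replicates 1 and 2 correlated over probes at between -0.039 and 0.155 from group to group. The highest value was between the primary groups, where replicate 2 was dim in both. Whether arrays of the same number were paired or processed together cannot be told from this. With slide as a block the WT comparison of recipients also had 0 calls. That fit could not differ from the fit of 4 groups, since each KO group had its own slide, so it checks nothing. By the laxer mark of a positive and significant signal, 98 of 104 combinations were detected against 80. Chosen after seeing the data, the array median scaling gave 5 against 7 probes separated upward in secondary recipients, 2 against 1 downward in primary recipients and 2 against 3 downward between recipients, and leaving out both dim arrays 4 against 3.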
